A study of Homo sapiens with 6 samples.

Results

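The genes described here are 34 genes that make cholesterol and fatty acids or control that synthesis, out of 58174 genes in the table. They were taken from a fixed list of symbols, and each symbol matched 1 row. By role they comprise 5 regulators, 8 enzymes of the mevalonate pathway, 11 enzymes that turn its product into sterols, 9 fatty acid enzymes and the sterol carrier STARD4. They were measured by polyA RNA-seq in A549 cells, an established human line from a lung adenocarcinoma, with 3 libraries of parental cells (Ctrl) and 3 of cells lacking the MIR21 gene (MIR21-KO). Both groups grew in the same serum-containing medium and were harvested 48 h after seeding. MIR21-KO cells descend from individually sorted cells transfected with plasmids for Cas9 and 2 sgRNAs, while Ctrl cells are the unsorted parental line. How many clones the MIR21-KO libraries represent is not given, so differences of a clone and of the deletion cannot be told apart. The study calls the samples of a group independent, and p-values measure the spread between these samples.

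Cells adjust their lipid synthesis through the sterol regulatory element-binding proteins (SREBPs), transcription factors that are made as membrane proteins. SCAP escorts them out of the endoplasmic reticulum for cleavage when sterols are scarce, and the INSIG proteins hold SCAP back when sterols are plentiful. The cleaved factors bind sterol response elements or E-boxes, usually next to sites of NF-Y (CCAAT) and Sp1 (GGGCGG), with SREBP-2 favouring cholesterol genes and SREBP-1 fatty acid genes. MiR-21-5p, the main product of MIR21, guides repression of mRNAs whose 3′ UTR pairs with its seed.

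The sequence removed from the MIR21-KO cells sets which mRNAs could be bound directly. The mature miRNA lies at chr17:59841273-59841294 of GRCh38.p14 (plus strand, RefSeq), and its seed, bases 2 to 8, is in capitals.
miR-21-5p: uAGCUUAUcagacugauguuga
Among the longest annotated 3′ UTRs of the 34 genes, 1 held a match to this seed, against 14.4% of 11644 protein-coding genes tested that had a 3′ UTR of at least 30 bases. Searched were ATAAGCT and TAAGCTA and their union ATAAGCTA, on the mRNA strand. The match is an 8mer in SC5D, sterol-C5-desaturase, at chr11:121308590-121308597 of GRCh38 (plus strand, GENCODE 29), shown in a window of 30 bases with the match in capitals, that is the bases facing the seed and an A opposite base 1.
SC5D: aaaggcattctATAAGCTAtttatgtaaaa
An 8mer was present in 2.87% of the protein-coding genes. SC5D was at 2.30, 2.47 and 2.31 FPKM in Ctrl replicates 1 to 3 and at 2.28, 2.36 and 2.88 FPKM in MIR21-KO replicates 1 to 3. Its groups overlapped, and only MIR21-KO replicate 3 exceeded every Ctrl library. The log2 fold change was 0.08 ± 0.13 (SE), with a 95% confidence interval from -0.24 to 0.39 (FDR = 0.694, limma), and it rested on 148 to 208 reads per library.

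Promoters were compared in RefSeq windows from 250 bases before to 50 after each annotated start, of which 41 belonged to 30 of the 34 genes. ACAT2, FDFT1, SQLE and FASN had no window and were not searched. CCAAT, on either strand, occurred in 65.9% of these 41 windows and in 34.6% of all 35116 windows. GGGCGG occurred in 85.4% and 45.0%, respectively. All windows cover 27305 genes without a filter on expression or gene type, unlike the comparison of 3′ UTRs. Whether the 34 genes differ in these motifs from other expressed protein-coding genes was not tested. The sterol response element TCACNCCAC was found, among these windows, only in that of SREBF2 and the E-box TCACGTGA only in that of INSIG1, against 1.13% and 0.98% of all windows. Both motifs were searched on both strands and neither overlapped a CCAAT in the windows printed. The 4 windows below are shown because SREBF2 and INSIG1 hold these elements, and because HMGCS1 and SCD, which lack them here and hold a pair of CCAAT boxes each, lay on opposite sides in the comparison. They are written 5′ to 3′ along the gene, with TCACNCCAC, TCACGTGA and CCAAT (read as ATTGG on the other strand) in capitals. Their positions are chr22:41832855-41833154 (plus strand), chr7:155297628-155297927 (plus strand), chr5:43313363-43313662 (minus strand) and chr10:100346983-100347282 (plus strand), in GRCh38.p14.
SREBF2: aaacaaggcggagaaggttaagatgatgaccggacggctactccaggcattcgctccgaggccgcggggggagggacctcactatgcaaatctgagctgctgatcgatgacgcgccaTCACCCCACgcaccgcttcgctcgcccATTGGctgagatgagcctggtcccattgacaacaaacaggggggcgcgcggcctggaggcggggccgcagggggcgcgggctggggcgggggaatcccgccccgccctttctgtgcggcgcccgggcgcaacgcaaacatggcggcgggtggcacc
INSIG1: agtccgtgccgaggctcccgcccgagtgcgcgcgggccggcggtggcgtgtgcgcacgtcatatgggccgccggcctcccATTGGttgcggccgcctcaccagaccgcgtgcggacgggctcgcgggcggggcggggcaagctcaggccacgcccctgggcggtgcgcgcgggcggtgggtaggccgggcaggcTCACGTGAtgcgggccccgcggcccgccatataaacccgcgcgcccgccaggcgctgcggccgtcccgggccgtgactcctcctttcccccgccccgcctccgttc
HMGCS1: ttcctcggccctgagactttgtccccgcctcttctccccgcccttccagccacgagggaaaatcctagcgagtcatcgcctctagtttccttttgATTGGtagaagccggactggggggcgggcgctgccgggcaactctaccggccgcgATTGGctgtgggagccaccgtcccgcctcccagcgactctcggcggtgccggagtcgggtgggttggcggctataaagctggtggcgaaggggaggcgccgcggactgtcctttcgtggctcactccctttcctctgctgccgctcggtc
SCD: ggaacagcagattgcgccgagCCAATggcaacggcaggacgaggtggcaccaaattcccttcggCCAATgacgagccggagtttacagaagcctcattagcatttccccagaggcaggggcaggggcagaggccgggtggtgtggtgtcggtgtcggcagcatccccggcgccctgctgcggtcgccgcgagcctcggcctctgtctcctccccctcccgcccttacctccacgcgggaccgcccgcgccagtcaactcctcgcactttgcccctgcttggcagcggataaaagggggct
The element of SREBF2 starts 133 bases before its transcription start and the E-box of INSIG1 56 bases before. The CCAAT boxes start 155 and 100 bases before the start in HMGCS1, and 229 and 186 bases before it in SCD. These are matches of letters, and no binding was measured.

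Each library held between 10631667 and 14345209 reads, recovered from the deposited FPKM (fragments per length of gene and size of library). Epithelial markers were present, 6 of 6 at a mean of at least 0.5 FPKM, with a summed level of 1684 to 1807 FPKM in Ctrl and 1217 to 1745 FPKM in MIR21-KO. Of 7 markers of leukocytes, endothelium, fibroblasts and alveolar type II cells, COL1A1 alone reached 0.5 FPKM, and CD3E was listed at 0 throughout; the sums were 3.38 to 3.70 FPKM in Ctrl and 3.68 to 4.72 FPKM in MIR21-KO. Among the epithelial markers CDH1 (E-cadherin) fell, by 1.48 on the log2 scale (FDR = 0.000175, limma), and its part in the lipid gene differences was not tested. KRT18 was also lower in each MIR21-KO library, at a log2 fold change of -0.69 (FDR = 0.0153, limma). KRT7, KRT8, KRT19 and EPCAM overlapped between groups, at log2 fold changes of 0.10, -0.23, 0.29 and -0.68. EPCAM rested on 12 to 57 reads per library. MIR21 itself is listed at 0 in all 6 libraries, so the table does not check the deletion, while the adjoining gene VMP1 rose from 75.1 ± 3.83 to 142.5 ± 7.18 FPKM (SD, n = 3; FDR = 0.000473, limma). In bulk RNA, fewer cells expressing a gene and less of its RNA per cell cannot be told apart.

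All 34 genes passed the expression filter of a mean of at least 0.5 FPKM and were tested in a fit over all 16006 genes that did. INSIG1, the sterol sensor, rose by 0.65 on the log2 scale, while HMGCS1 and FASN fell by 0.84 and 0.51 on that scale, and none of the 34 differed 2-fold. These are 3 of 34 genes or 8.82%, against 16.0% of all 16006 genes tested (FDR under 0.01, limma). Over all genes 7.66% were called higher and 8.38% lower. At an FDR under 0.05 the number was 7 (20.6%, against 32.0% of all genes), with SCD and MVK higher and DHCR7 and ACAT2 lower in addition. The 3 libraries of each group did not overlap for 19 of 34 genes (55.9%, against 48.1% of all genes), 11 of them higher and 8 lower in MIR21-KO. All 34 genes are protein-coding, and the groups did not overlap for 55.2% of the 11719 protein-coding genes tested, a similar share. Of these protein-coding genes, 19.7% were called at an FDR under 0.01 and 37.6% at an FDR under 0.05. The log2 fold changes ranged from -0.84 to 0.65 with a median of 0.04, where the median of all genes was -0.02. Their median size was 0.22, compared with 0.35 for all genes. Of the 34 estimates 18 were positive and 16 negative. The share of genes called was thus below that of all genes. This order was the opposite with GC and length trends removed (44.1% against 24.7%) and with no filter on low values (8.82% against 6.16%). Both shares were close without MIR21-KO replicate 3 (23.5% against 21.2%), MIR21-KO replicate 1 (14.7% against 13.7%) or Ctrl replicate 2 (5.88% against 5.76%). In the other alternative analyses the 34 genes stayed below, as with voom (14.7% against 21.4%) and protein-coding genes only (17.6% against 27.8%).

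**Figure D1:**
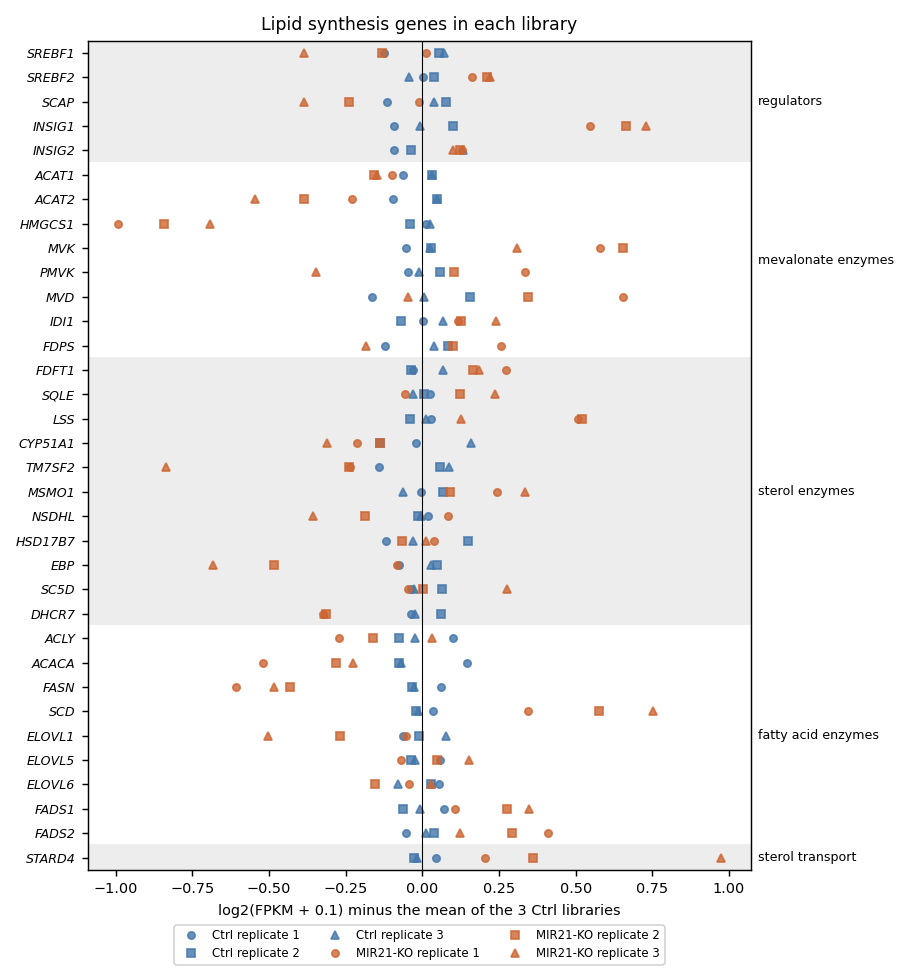
Level of each of the 34 genes in each library, as log2(FPKM + 0.1) minus the mean of the 3 Ctrl libraries (x axis), with genes grouped by role (y axis), Ctrl in blue and MIR21-KO in orange. INSIG1 and SCD lie to the right and HMGCS1 and FASN to the left in all 3 MIR21-KO libraries, and the groups overlap for 15 of the 34 genes.

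Of the 5 regulators, 1 rose (20%, against 16.0% of all genes called in either direction) and 4 did not pass the test. INSIG1 (ENSG00000186480, chromosome 7, 155297776 to 155310235, GENCODE 29) was at 14.7, 16.8 and 15.6 FPKM in Ctrl and at 22.9, 24.9 and 26.0 FPKM in MIR21-KO replicates 1 to 3. The lowest MIR21-KO library was thus above the highest Ctrl library. The log2 fold change was 0.65 ± 0.085 (SE, 95% confidence interval 0.45 to 0.85, FDR = 0.00217, limma), with 658 to 1230 reads per library. Over 20 alternative analyses the FDR lay between 0.000643 and 0.0168, and the call was lost with a replicate block (0.0145) and without Ctrl replicate 1 (0.0140), Ctrl replicate 3 (0.0155) or MIR21-KO replicate 2 (0.0168). Over all genes, 4.8 to 5.76% were called without a Ctrl library or without MIR21-KO replicate 2. With the block 4.07% were called, against 16.0% in the main fit. Its relative INSIG2 was at 3.28 to 3.85 FPKM in Ctrl and 3.77 to 3.85 FPKM in MIR21-KO, with a log2 fold change of 0.12 (95% confidence interval -0.13 to 0.36).

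The 2 SREBP genes lay on opposite sides without passing the test. SREBF2, which encodes SREBP-2, was at 12.64, 12.96 and 12.24 FPKM in Ctrl and 14.11, 14.60 and 14.71 FPKM in MIR21-KO. Its groups did not overlap, and the log2 fold change was 0.20 (95% confidence interval 0.04 to 0.36, FDR = 0.0633, limma). SREBF1, which encodes SREBP-1, was at 27.2, 30.7 and 31.1 FPKM in Ctrl and 29.9, 27.0 and 22.6 FPKM in MIR21-KO, with a log2 fold change of -0.17 (95% confidence interval -0.45 to 0.11, FDR = 0.317, limma). The SREBP escort SCAP had overlapping groups too, at 9.08 to 10.4 FPKM in Ctrl and 7.51 to 9.76 FPKM in MIR21-KO (log2 fold change of -0.21 at FDR = 0.210, limma). SREBF1 and SCAP were each lowest in MIR21-KO replicate 3. Exons of SREBF1 share 556 bases with RAI1 on the other strand, and whether counting used strand is not stated. Of 8 further genes that process SREBPs or degrade sterol sensors, among them the proteases MBTPS1 and MBTPS2, 0 of 8 passed at an FDR under 0.01 or 0.05 in limma, and 1 had an unadjusted p under 0.05 (12.5%, against 43.2% of all genes). With voom the count at an FDR under 0.01 was also 0 (21.4% of all genes), and with gene length trends removed MBTPS1 was called higher (20.8% of all genes were called).

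In the mevalonate pathway 1 of 8 genes fell (12.5%, against 16.0% of all genes called in either direction) and 7 did not pass the test. HMGCS1 (ENSG00000112972, chromosome 5, 43289395 to 43313512) encodes the cytosolic HMG-CoA synthase, an early enzyme of the pathway. Its level was 25.5, 24.6 and 25.8 FPKM in Ctrl and 12.7, 14.1 and 15.6 FPKM in MIR21-KO. The Ctrl libraries differed little and all lay far above the highest MIR21-KO library. The log2 fold change was -0.84 ± 0.091 (SE, 95% confidence interval -1.06 to -0.63, FDR = 0.00109, limma), with 810 to 1658 reads per library. HMGCS1 was the 1 gene of the 34 that was called in all 20 alternatives, at log2 fold changes from -0.92 to -0.70. Its exons share 703 bases with AC114947.2 on the other strand, a gene at a mean of 0.691 FPKM.

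HMGCS1 and INSIG1, both known targets of SREBPs, thus lay on opposite sides. The ratio of HMGCS1 to INSIG1 within a library, which no scaling of libraries can alter, was 1.74, 1.47 and 1.66 in Ctrl and 0.554, 0.566 and 0.601 in MIR21-KO. It was 2.83 times lower in MIR21-KO on average, from 1.62 ± 0.139 to 0.574 ± 0.0247 (SD, n = 3). This pair was chosen after its values were seen and was not tested.

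Other mevalonate genes lay on either side. MVK (mevalonate kinase) was at 3.26, 3.46 and 3.45 FPKM in Ctrl and 5.11, 5.40 and 4.22 FPKM in MIR21-KO (log2 fold change 0.51, 95% confidence interval 0.23 to 0.80, FDR = 0.0177, limma). ACAT2, the cytosolic acetoacetyl-CoA thiolase at the entry of the pathway, was at 12.5, 13.8 and 13.8 FPKM in Ctrl and 11.3, 10.2 and 9.09 FPKM in MIR21-KO (log2 fold change -0.39, 95% confidence interval -0.63 to -0.15, FDR = 0.0278, limma). Neither gene overlapped between groups, and neither passed the threshold of 0.01. Exons of MVK share 306 bases with MMAB and those of ACAT2 397 bases with TCP1, on the other strand in both cases. In GENCODE 29 the exons of ACAT2 also lie opposite 1458 bases of SOD2-OT1 and 1141 bases of SOD2, gene models whose identifiers were not analysed here. ACAT1, the mitochondrial thiolase, and IDI1, the isomerase of the isoprenoid units, had log2 fold changes of -0.13 (95% confidence interval -0.30 to 0.03) and 0.16 (-0.02 to 0.34). MVD, mevalonate diphosphate decarboxylase, spread from 6.16 to 10.1 FPKM among MIR21-KO libraries, against 5.68 to 7.12 FPKM in Ctrl. PMVK and FDPS, the kinase and the prenyl transferase of the pathway, also varied, PMVK from 28.5 to 45.7 FPKM in MIR21-KO and 35.1 to 37.7 FPKM in Ctrl, and FDPS from 33.8 to 46.0 and 35.3 to 40.7 FPKM. For MVD, PMVK and FDPS alike, MIR21-KO replicate 1 was the highest and replicate 3 the lowest of the MIR21-KO libraries.

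Among the 11 sterol enzymes 0 passed at an FDR under 0.01 in limma, 1 passed at an FDR under 0.05 (9.09%, against 32.0% of all genes) and 5 had an unadjusted p under 0.05 (45.5%, against 43.2%). With voom, too, 0 of 11 were called at 0.01, against 21.4% of all genes. DHCR7, the reductase that completes cholesterol, was the nearest to the threshold. It was at 24.8, 26.6 and 25.0 FPKM in Ctrl and 20.3, 20.5 and 20.3 FPKM in MIR21-KO, whose libraries were almost equal and all below Ctrl. The log2 fold change was -0.32 (95% confidence interval -0.47 to -0.17, FDR = 0.0106, limma). FDFT1 (squalene synthase), LSS (lanosterol synthase) and MSMO1 (methylsterol monooxygenase) were higher in each MIR21-KO library than in each Ctrl library, at log2 fold changes of 0.21, 0.38 and 0.22 (FDR = 0.0638, 0.0645 and 0.0950, limma). EBP (sterol isomerase) and TM7SF2 (sterol reductase) were lower in each, at -0.42 and -0.44 (FDR = 0.0797 and 0.131). SQLE (squalene epoxidase), the regulated step after FDFT1, was at 21.2 to 22.1 FPKM in Ctrl and 20.9 to 25.6 FPKM in MIR21-KO, with a log2 fold change of 0.10 (95% confidence interval -0.11 to 0.32). CYP51A1 (lanosterol demethylase) and NSDHL had log2 fold changes of -0.22 and -0.15 with overlapping groups, and 2844 exonic bases of CYP51A1 also belong to another gene model on its strand. HSD17B7 was at 3.16 to 3.83 FPKM in Ctrl and 3.29 to 3.54 FPKM in MIR21-KO, and its reads could be shared with the pseudogene HSD17B7P2, which was listed at a mean of 2.42 FPKM. With GC and length trends removed, 4 of these 11 genes were called (MSMO1 higher, and DHCR7, EBP and TM7SF2 lower), against 24.7% of all genes.

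**Figure D2:**
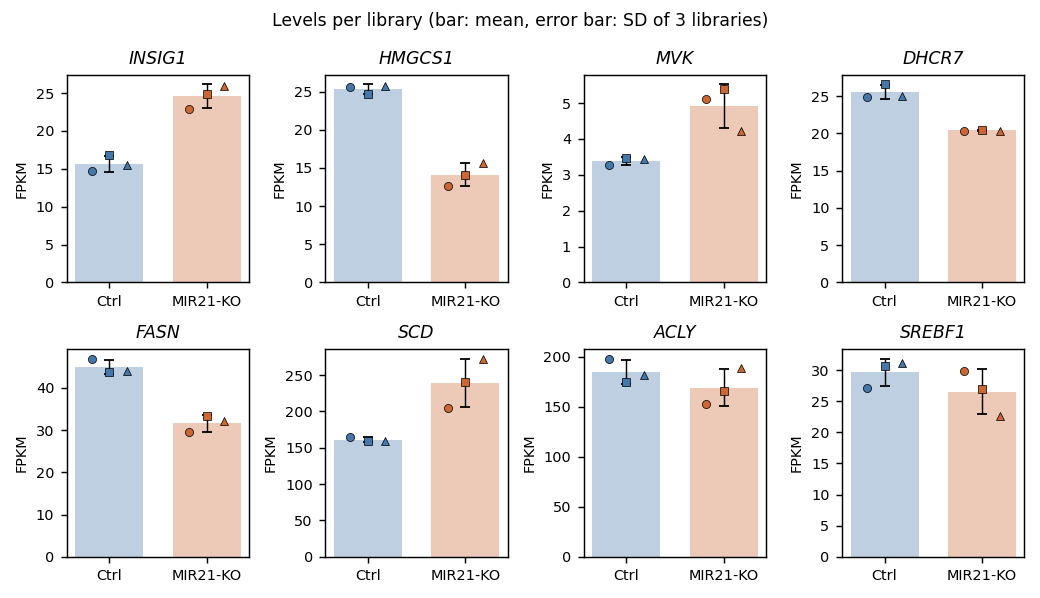
FPKM of 8 genes in each library (points), with the mean (bars) and SD of 3 libraries (error bars) for Ctrl and MIR21-KO. INSIG1, MVK and SCD are higher and HMGCS1, DHCR7 and FASN lower in all 3 MIR21-KO libraries, whereas ACLY and SREBF1 overlap.

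The fatty acid enzymes held the most abundant mRNAs of the list, and 1 of 9 fell (11.1%, against 16.0% of all genes called in either direction). FASN (ENSG00000169710, chromosome 17, 82078333 to 82098332), the synthase that builds palmitate, was at 46.9, 43.8 and 44.1 FPKM in Ctrl and 29.4, 33.3 and 32.1 FPKM in MIR21-KO, without overlap. The log2 fold change was -0.51 ± 0.077 (SE, 95% confidence interval -0.69 to -0.33, FDR = 0.00364, limma). The call was lost without any single Ctrl library (FDR 0.0185 to 0.0227), without MIR21-KO replicate 2 (0.0170), without trend and robust fitting (0.0110) and with the replicate block, either alone (0.0313) or with GC and length trends removed (0.0128). The share of all genes called in the fits without these libraries was 4.8 to 5.76%, against 16.0% in the main fit. SCD, which desaturates the product of FASN, had the opposite sign. Its level was 165.4, 158.9 and 159.8 FPKM in Ctrl and 204.9, 240.4 and 271.9 FPKM in MIR21-KO, each above every Ctrl library (log2 fold change 0.56, 95% confidence interval 0.28 to 0.83, FDR = 0.0123, limma). SCD was called in 8 of 20 alternatives, among them the main fit at an FDR under 0.05 and voom on the recovered reads (FDR = 0.00287). The ratio of FASN to SCD within a library averaged 0.278 ± 0.00442 (SD, n = 3) in Ctrl and 0.133 ± 0.0135 (SD, n = 3) in MIR21-KO, a pair also chosen after its values were seen.

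ACLY, which supplies cytosolic acetyl-CoA, and ACACA, which makes malonyl-CoA, stand before FASN in the pathway. ACLY was at 175.0 to 197.9 FPKM in Ctrl and 153.1 to 188.9 FPKM in MIR21-KO (log2 fold change -0.13, 95% confidence interval -0.38 to 0.12), and 156 of its exonic bases lie opposite AC125257.2, which was at a mean of 125.5 FPKM. ACACA was at 7.27, 6.21 and 6.23 FPKM in Ctrl and 4.54, 5.37 and 5.58 FPKM in MIR21-KO, so that its groups did not overlap (log2 fold change of -0.34 at FDR = 0.0647, limma). The desaturases FADS1 and FADS2, which act on polyunsaturated fatty acids and share 490 exonic bases on opposite strands, were higher in each MIR21-KO library at log2 fold changes of 0.24 and 0.27 (FDR = 0.0766 and 0.0595, limma). The elongases ELOVL5 and ELOVL6 stayed within 33.0 to 35.2 and 4.71 to 5.18 FPKM in Ctrl, and within 32.2 to 37.6 and 4.47 to 5.08 FPKM in MIR21-KO. ELOVL1, the elongase of very long chains, was at 40.7 to 44.8 and 29.95 to 40.96 FPKM (log2 fold change -0.28, 95% confidence interval -0.56 to 0.01). STARD4, a cytosolic carrier of cholesterol, was at 4.57, 4.35 and 4.37 FPKM in Ctrl and 5.13, 5.72 and 8.80 FPKM in MIR21-KO, with a log2 fold change of 0.51 (95% confidence interval 0.04 to 0.98, FDR = 0.0923, limma). Without MIR21-KO replicate 3, its highest library, the log2 fold change of STARD4 was 0.28.

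Summed over the 34 genes, the level was 959.5 to 972.8 FPKM in Ctrl and 995.0 to 1044 FPKM in MIR21-KO, or 1.05 times higher on average. SCD and ACLY were the most abundant of the 34. Without SCD, the other 33 genes summed to 800.6 to 807.4 FPKM in Ctrl and 771.8 to 790.1 FPKM in MIR21-KO, or 0.968 times the Ctrl level, and the sum was then lower in each MIR21-KO library. The 8 mevalonate genes summed to 151.3 to 161.2 FPKM in Ctrl and 134.2 to 166.1 FPKM in MIR21-KO, and the 11 sterol enzymes to 164.1 to 169.7 and 152.2 to 169.7 FPKM. Both ranges overlapped between groups.

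**Figure D3:**
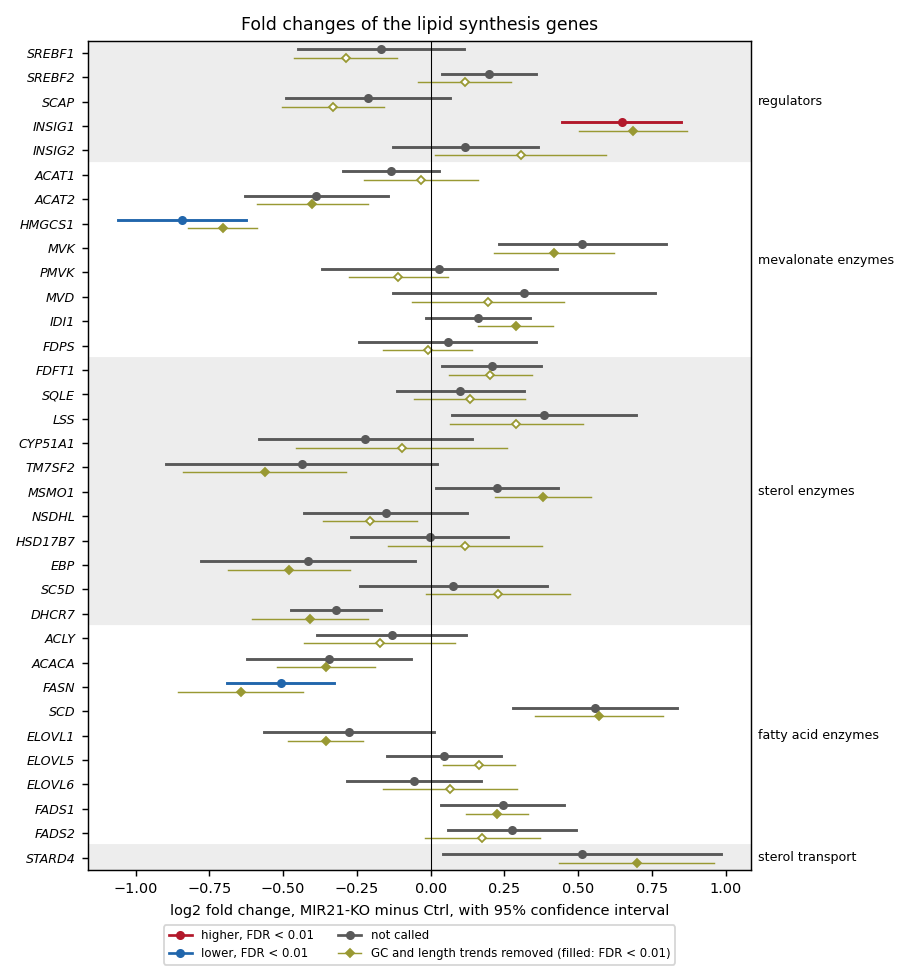
Log2 fold change of each gene, MIR21-KO minus Ctrl, with its 95% confidence interval (x axis) by gene (y axis), in circles as estimated by limma and in diamonds after removal of each library's trends on GC content and gene length. INSIG1 is called higher and HMGCS1 and FASN lower in the former, and filled diamonds mark the 15 genes called in the latter.

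The spread was larger in MIR21-KO than in Ctrl for 27 of 34 genes (79.4%, against 69.5% of all genes and 75% of protein-coding genes). The median SD of the 34 genes on the log2 scale was 0.152 in MIR21-KO and 0.0662 in Ctrl. MIR21-KO replicate 3 was the highest of its group for 14 genes and the lowest for 15. Its deviation from the other MIR21-KO libraries went with GC content, taken over the exons of each gene's longest annotated transcript. The Pearson correlation was -0.71 across the 34 genes, which share these libraries and are not replicates, and -0.57 across 11715 protein-coding genes. PMVK, MVD and TM7SF2, with a GC content of 59.5 to 64.2%, were lowest of their group in this library, and STARD4, at 34.2%, was highest. Single genes departed from this trend. FASN, with the highest GC content of the 34 (65.3%), was in the middle there, and INSIG2, at 35.4%, was lowest. With trends on GC content and gene length removed from each library, 15 of the 34 genes were called (44.1%), 7 higher and 8 lower, against 24.7% of all genes. The higher ones were INSIG1, SCD, MVK, IDI1, MSMO1, FADS1 and STARD4, and the lower ones HMGCS1, FASN, ACAT2, DHCR7, EBP, TM7SF2, ACACA and ELOVL1. The removal was chosen after seeing the data, and with the replicate block in addition INSIG1 and HMGCS1 were called (2 of 34, where 1761 of all 16006 genes were called). Without MIR21-KO replicate 3 the calls were 5 higher (INSIG1, SCD, MVK, LSS and FADS2) and 3 lower (HMGCS1, FASN and DHCR7), or 23.5% against 21.2% of all genes. The part of GC content in any single difference was not tested.

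**Figure D4:**
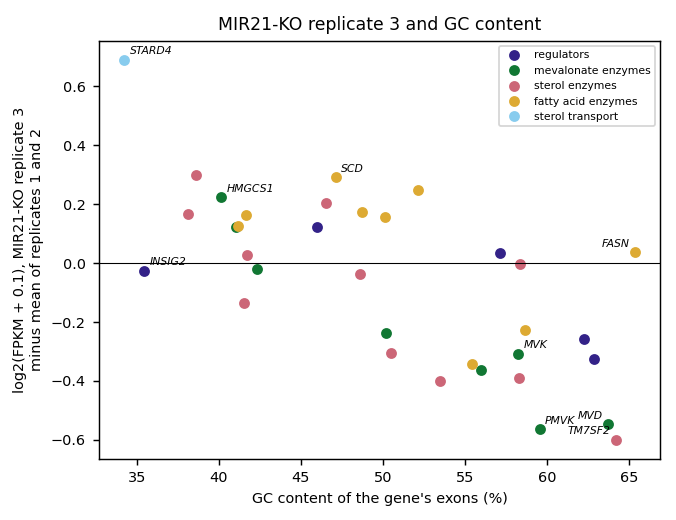
Deviation of MIR21-KO replicate 3 from the mean of MIR21-KO replicates 1 and 2, in log2(FPKM + 0.1) (y axis), against the GC content of the exons of each gene's longest annotated transcript in percent (x axis), with 1 point per gene coloured by role. Points fall from upper left to lower right, with a Pearson correlation of -0.71 over 34 genes.

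Genes of the same pathways outside the list were taken from lists of 44 tested genes, of which 5 (11.4%, against 16.0% of all genes) were called, 3 higher and 2 lower. ACSS2, which makes acetyl-CoA from acetate, was at 2.67, 2.50 and 2.84 FPKM in Ctrl and 4.68, 4.84 and 4.02 FPKM in MIR21-KO (log2 fold change of 0.73 at FDR = 0.00441, limma). SCD5, a second stearoyl-CoA desaturase, was at 4.24 to 5.25 FPKM in Ctrl and 6.76 to 7.27 FPKM in MIR21-KO, with a log2 fold change of 0.56 (FDR = 0.00842, limma). NPC2, which hands on cholesterol inside lysosomes, rose from 41.2 ± 2.36 FPKM in Ctrl to 82.5 ± 14.1 FPKM in MIR21-KO (SD, n = 3), with a log2 fold change of 0.99 (FDR = 0.00261, limma). LBR, whose protein is a sterol reductase of the inner nuclear membrane, was at 25.1 to 27.4 FPKM in Ctrl and 12.5 to 17.8 FPKM in MIR21-KO, with a log2 fold change of -0.83 (FDR = 0.00482, limma). TMEM97, the sigma-2 receptor, which binds NPC1, was at 48.1, 48.2 and 48.3 FPKM in Ctrl and 25.6, 22.6 and 25.6 FPKM in MIR21-KO (log2 fold change of -0.97 at FDR = 0.000319), and was called in all 20 alternatives. Each of the other 4 lost its call when any Ctrl library or MIR21-KO replicate 2 was left out, ACSS2 and SCD5 also without MIR21-KO replicate 1, and SCD5 also without MIR21-KO replicate 3. Without a Ctrl library or MIR21-KO replicate 2, the share of all genes called was 4.8 to 5.76%. Calls were made in 15 of 20 alternatives for NPC2, 13 of 20 for LBR, 12 of 19 for ACSS2 and 9 of 20 for SCD5.

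Fatty acid oxidation, the opposite pathway, was represented by 14 genes, of which 1 rose and 1 fell (14.3%, against 16.0% of all genes). ECI2, an isomerase for unsaturated fatty acids, was at 9.78 to 11.2 FPKM in Ctrl and 13.6 to 17.6 FPKM in MIR21-KO (log2 fold change of 0.61 at FDR = 0.00876, limma). ETFA, a subunit of the electron transfer flavoprotein, was at 47.4 to 51.8 FPKM in Ctrl and 31.1 to 37.1 FPKM in MIR21-KO (log2 fold change of -0.56 at FDR = 0.00454, limma). ECI2 was called in 11 of 20 alternatives and ETFA in 13 of 20. Both calls were lost when any Ctrl library or MIR21-KO replicate 2 was left out, and that of ECI2 also without MIR21-KO replicate 1. Leaving out a Ctrl library or MIR21-KO replicate 2 also lowered the share of all genes called, to 4.8 to 5.76%. For CPT1A, the entry enzyme of mitochondrial oxidation, the level was 8.71 to 9.14 FPKM in Ctrl and 9.42 to 9.93 FPKM in MIR21-KO, a log2 fold change of 0.11 (95% confidence interval -0.06 to 0.28); it was named for its place in the pathway.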

How the data were processed

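PolyA RNA-seq data of 3 Ctrl and 3 MIR21-KO libraries of A549 cells, grouped by the sample titles, were analysed. Per the labels, strand-specific libraries were sequenced by Novogene on an Illumina HiSeq instrument. The submitters' processing notes name cutadapt 1.14, HISAT2 2.1.0, SAMtools 1.5, featureCounts 1.5.3, edgeR 3.18.1 and hg38; the annotation, the strand setting and the treatment of shared reads are not given in the sources used here. The authors deposited 1 table with the FPKM of each library, gene lengths, and columns of their own comparison (fold changes on a log2 scale, p-values and FDRs), which were not used. Multiplied by length, 100% of values were whole multiples of 1 read (tolerance 0.01), and 1 read per kb of gene equals 0.0731 to 0.0930 FPKM. Library sizes implied by the FPKM were 0.950 to 1.03 times the recovered reads.

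Limma 3.58.1 (R 4.3.3) was applied to log2(FPKM + 0.1) of the 16006 genes averaging at least 0.5 FPKM, using eBayes with trend and robust options and without covariates. All tests are two-sided, and FDRs were obtained by the Benjamini-Hochberg method over all genes, with calls under 0.01. Fold changes on this scale understate those of low genes. The procedure was tested on simulated data. Coordinates came from GENCODE 29 (57836 of 58174 genes matched by identifier), and sequences from RefSeq (GRCh38.p14) and the GENCODE 29 transcripts. All 34 genes were named, as were the called genes of the related and oxidation lists (at most 5 per list and direction), MIR21, VMP1 and any pseudogene of a member with a mean of at least 0.5 FPKM. The members and lists were chosen with earlier results of these data known. Single values of some genes of the related lists are not reported here. Alternatives were other pseudocounts, filters, scalings and thresholds, voom on recovered reads, protein-coding genes only, no trend or robust fitting, a replicate block, removal of gene length trends, and leaving out each library. Removal of GC and length trends (lowess, span 0.3) was added after seeing the data. Figures were drawn with matplotlib 3.10.9.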

Additional observations from a re-analysis of the deposited data

How the results depend on the processing

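HMGCS1 was called lower in all 20 alternatives, INSIG1 higher in 16 and FASN lower in 13. These counts include the main fit at an FDR under 0.05, which keeps its calls by construction. The main analysis called 1 of the 34 genes higher and 2 lower, 3 related genes higher and 2 lower, and 2 oxidation genes. In the same order the counts were 3, 4, 9, 9 and 2 at an FDR under 0.05; 3, 2, 6, 4 and 2 with voom; 3, 3, 7, 4 and 2 among protein-coding genes only; and 3, 3, 7, 3 and 2 with gene length trends removed. They were 7, 8, 10, 5 and 2 with GC and length trends removed, and 1, 1, 3, 2 and 0 with that removal and the replicate block. A minimum mean of 5 FPKM gave 2, 3, 3, 2 and 2, no filter 1, 2, 2, 1 and 1, and limma without trend and robust fitting 1, 1, 2, 1 and 0. The share of all genes called was 32.0% at an FDR under 0.05, 21.4% with voom and 20.8% with gene length trends removed. It was 27.8% among protein-coding genes only, 24.7% with GC and length trends removed and 11% with the block in addition. With a minimum mean of 5 FPKM, 26 of the 34 genes were tested and the share was 25.9%. It was 6.16% with no filter and 12.2% without trend and robust fitting. Leaving out 1 library gave 0 to 5, 1 to 3, 0 to 4, 1 to 4 and 0 to 3, with 4.8 to 21.2% of all genes called. Other pseudocounts and scalings stayed within 1.5 times of these counts.

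Replicate numbers did not pair the libraries: deviations of same-numbered libraries correlated at -0.17, -0.02 and -0.02. With the number as a replicate block the counts were 0, 1, 0, 1 and 0, and 651 genes were called in all, against 2568. The log2 fold change of SC5D was -0.023 when MIR21-KO replicate 3 was left out and 0.14 when MIR21-KO replicate 1 was. The estimates of PMVK, FDPS, HSD17B7, ELOVL5 and ELOVL6, none of them called in any alternative, changed sign in 1 to 7 alternatives. The causes of these changes were not tested. The median over all genes shifted by 0.02 under median-ratio scaling and by -0.03 under scaling by total reads. With 3 libraries per group, estimates of low genes such as CYP51A1 and SC5D have wide intervals.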
